A study of Mus musculus with 6 samples.

Results

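Chemokines and interleukins are the secreted signals of the immune system. The genes described here were chosen by name: every row of the deposited count table whose Ensembl identifier is a protein-coding gene in GENCODE M21 with a symbol that begins with Ccl or Cxcl followed by only a number, or with Il followed by a digit. That name rule gave 113 genes of the 46983 in the table: 19 CC chemokines, 12 CXC chemokines, 37 interleukins, 41 receptor chains, 3 antagonists or binding proteins and 1 enzyme. The rule used names and no measured value, but these genes were chosen with earlier results of these data known. The comparison between genotypes was fitted for the 62 of the 113 genes that had enough counts for it. Cxcl12, which mesenchyme and stromal cells express, was set against the other chemokines as a contrast.

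Each library is labelled as neural crest cells (NCCs), the migratory cells of the dorsal neural tube that form much of the face, the peripheral ganglia and the smooth muscle of the great vessels. Cells positive for GFP were sorted by flow cytometry from E11.25 mouse embryos. The 3 controls carried Wnt1 Cre/+ and Rosa26 mTmG/+ together with BAF155 flox/+ and BAF170 flox/+, and the 3 BAF155/170-deficient libraries carried the same Wnt1 Cre/+ and Rosa26 mTmG/+ with BAF155 flox/flox and also BAF170 flox/flox. Both groups therefore carried Wnt1-Cre, the mTmG reporter and at least 1 floxed allele of each of the genes for BAF155 (Smarcc1) and BAF170 (Smarcc2), core subunits of the BAF chromatin remodeling complex. Wnt1-Cre is also active in dorsal neural tube cells that stay in the central nervous system, so the sort marks a lineage and not a single cell type. The labels number the replicates of a group and do not say whether a library came from 1 embryo or from a pool, so the p-values below measure the spread between these libraries.

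Chemokines bind G protein-coupled receptors and draw cells along their gradients. CC chemokines such as Ccl2 mainly attract monocytes, macrophages and lymphocytes, whereas Cxcl9 and Cxcl10 are induced by interferon and attract cells that carry Cxcr3. Cxcl12 differs from these: it is made by mesenchyme and stroma, and it guides neural crest, germ and blood stem cells through its receptor Cxcr4, while Ackr3 removes it. Interleukins act on paired receptor chains. Most of those chains signal through Janus kinases and STAT factors, and the IL-1 family signals through Myd88 to NF-kappaB. Activated macrophages are a main source of Il1b, Il1a, Il6, Il10, Il12b, Il27 and of the IL-1 receptor antagonist Il1rn.

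To show what regulatory sequence lies next to the contrast, the 250 bases upstream of the RefSeq start site are printed for Cxcl9 and Cxcl10, neighboring genes whose levels differed in the same direction, and for Cxcl12. All are from build GRCm38.p6 and are written 5′ to 3′ on the gene's own strand, ending just before the start site. Cxcl9 lies on the minus strand at chr5:92328080-92328329, Cxcl10 on the minus strand at chr5:92348890-92349139, and Cxcl12 on the plus strand at chr6:117168285-117168534. Capitals mark matches to an NF-kappaB site (kappaB) consensus or to the interferon-stimulated response element (ISRE), found by a search of both strands.
Cxcl9: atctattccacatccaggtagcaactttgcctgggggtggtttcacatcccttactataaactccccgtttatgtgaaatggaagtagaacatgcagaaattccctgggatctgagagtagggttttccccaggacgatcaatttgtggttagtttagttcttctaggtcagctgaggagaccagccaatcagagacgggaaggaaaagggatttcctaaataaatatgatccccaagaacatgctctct
Cxcl10: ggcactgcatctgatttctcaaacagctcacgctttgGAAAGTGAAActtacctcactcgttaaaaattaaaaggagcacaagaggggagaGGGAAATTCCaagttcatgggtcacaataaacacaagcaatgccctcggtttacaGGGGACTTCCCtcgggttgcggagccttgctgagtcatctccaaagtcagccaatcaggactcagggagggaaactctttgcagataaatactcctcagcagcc
Cxcl12: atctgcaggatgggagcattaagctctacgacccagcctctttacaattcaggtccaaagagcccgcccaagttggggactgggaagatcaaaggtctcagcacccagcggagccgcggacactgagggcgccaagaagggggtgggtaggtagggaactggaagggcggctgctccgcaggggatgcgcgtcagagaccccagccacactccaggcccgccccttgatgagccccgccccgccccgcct
The Cxcl10 stretch held an ISRE match at positions -213 to -204 and kappaB matches at -159 to -150, -104 to -95 and -103 to -94, of which the latter pair overlap. Neither of these motifs, nor the STAT element TTCNNNGAA (GAS), had a match in the Cxcl9 or Cxcl12 stretches. RefSeq promoters, taken as 250 bases before to 50 bases after a start, were matched by symbol for 45 of the 62 tested genes. A kappaB match was in 21.8% of their 55 promoters and in 8.46% of all 32851 promoters in the table. For the ISRE the shares were 7.27% and 3.44%, and for the GAS element 9.09% and 8.30%. Of these genes, 26 had a mean of at least 20 CPM (counts scaled to a library of 1000000). Of their 30 promoters, 1 held an ISRE match (3.33%), that of Cxcl10. A GAS match was in 1 (3.33%) and a kappaB match in 6. Among these abundant genes only the kappaB share was thus above that of all promoters. These shares describe letters and were not tested, and nothing in these libraries measured binding.

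The libraries held 9662823, 8191219 and 11661941 counts in the controls and 12633319, 16557026 and 19808620 in the BAF155/170-deficient group, so that every BAF155/170-deficient library was deeper than every control. Smarcc1, one of the targeted genes, was lower in every BAF155/170-deficient library (29.4, 26.4 and 24.5 CPM, counts scaled to a library of 1000000, against 42.1, 55.0 and 35.1; log2 fold change -0.71, SE 0.16, adjusted p = 0.0676). Smarcc2 was at 91.8, 89.9 and 92.9 CPM in controls and 85.9, 82.3 and 86.8 CPM in the BAF155/170-deficient libraries (adjusted p = 0.251). CPM values were taken on library sizes normalized by the trimmed mean of M values (TMM), and adjusted p-values come from edgeR's quasi-likelihood test over 13961 genes.

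The labelled cell type was checked against marker lists. Macrophage genes were abundant in every library: the 14 macrophage markers summed to 13663, 12822 and 14884 CPM in controls and 15021, 15694 and 16375 CPM in the BAF155/170-deficient libraries, and Adgre1, which encodes the macrophage surface protein F4/80, was at 893 to 1151 CPM. The 14 mesenchymal crest markers summed to 277, 386 and 242 CPM and 189, 154 and 150.2 CPM, and Sox10, a factor of neural crest and glia, was at 0.855 to 7.76 CPM. None of the 14 macrophage markers was at 0 in any library. The counts do not show which cells these reads came from, so differences are given between libraries and not as changes within NCCs. In bulk samples, fewer cells of a type and less RNA per cell cannot be told apart. Summed levels did not separate the groups for the megakaryocyte and platelet (3.86 to 6.56 CPM), mast cell (0.313 to 1.38 CPM) and lymphoid markers (2.09 to 3.52 CPM). They were higher in every BAF155/170-deficient library for the neutrophil (291 to 381 CPM, most of it Csf3r, which macrophages also express) and endothelial markers (175 to 213 CPM, most of it Kdr), and lower for the erythroid (9.78 to 60.6 CPM), epithelial (0.862 to 2.94 CPM), neural crest and glial (7.70 to 42.1 CPM) and neuronal markers (21 to 112 CPM). Of the other neutrophil markers, S100a8 was at 6.82 to 14.4 CPM and S100a9 at 4.68 to 8.86 CPM, both with every BAF155/170-deficient library above every control (adjusted p = 0.105 and 0.109), Ngp was at 2.57 to 4.47 CPM, and Ly6g, Mpo, Elane, Camp, Ltf and Retnlg were at no more than 0.783 CPM in any library.

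Chemokine and interleukin genes other than Cxcl12 were mostly slightly more abundant in BAF155/170-deficient libraries on the TMM scale, as the macrophage markers were, and not when the libraries were scaled to those markers. Of the 62 tested genes, 57 had a positive log2 fold change (deficient over control) and 5 a negative one, with a median of 0.19 against -0.018 over all genes tested. All 38 genes with a mean of at least 20 CPM had a positive value, from 0.012 for Il6st to 0.24 for Il4i1 with a median of 0.18, and the 14 macrophage markers ran from 0.15 to 0.25 with a median of 0.19, of which 2 passed an adjusted p of 0.1. When the libraries were instead scaled to the macrophage markers, the median of these 38 genes was -0.0069, with 14 positive and 24 negative, so the direction of the group depended on that choice. That scaling moved the median of all genes from -0.018 to -0.21, and a correction for gene length moved it to 0.096. Of the 38 genes, 29 lay within the range of the macrophage markers, 9 below it and 0 above it.

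The adjusted p was at most 0.1 with a higher level for 8 genes: Il15, Il10, Il15ra, Il27, Il4i1, Il18bp, Ccl4 and Il10ra. They were 12.9% of the 62 genes tested, against 4.18% of all genes. All 8 were among the 38 genes with at least 20 CPM, or 21.1% of these, against 10.7% of all genes at that level. Their log2 fold changes ran only from 0.18 to 0.24. Another 22 had a higher level with an adjusted p between 0.1 and 0.2. On the TMM scale the 3 libraries of each group did not overlap for 31 genes that were higher in BAF155/170-deficient libraries. Of all genes tested 15.0% did so. Among the genes of at least 20 CPM this held for 28 of 38, and for 32.4% of all genes at that level. The count of 8 changed when a library was left out. It fell to 0 when control replicate 1 or 2 or deficient replicate 2 or 3 was omitted, each fitted with edgeR, and was 6 without deficient replicate 1 and 31 without control replicate 3. In those 4 fits without a call, 11, 17, 19 and 12 of the genes had an unadjusted p under 0.05, a mark that 32 of the 62 genes and 27.3% of all genes passed with every library. Over all 13961 genes the number with an adjusted p of at most 0.1 was 1665, and it was 0, 73, 414 and 19 in the same 4 fits. Scaling to library totals or to the macrophage markers also gave 0, with 12 and 3 genes at an unadjusted p under 0.05. After the correction for gene length 14 genes passed as higher, and of the 8 only Il10ra, Il15ra and Il4i1 were among them. Lower at an adjusted p of at most 0.1 were 2 genes, Cxcl12 and Il17rd, or 3.23% of the genes tested against 7.75% of all genes.

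**Figure D1:**
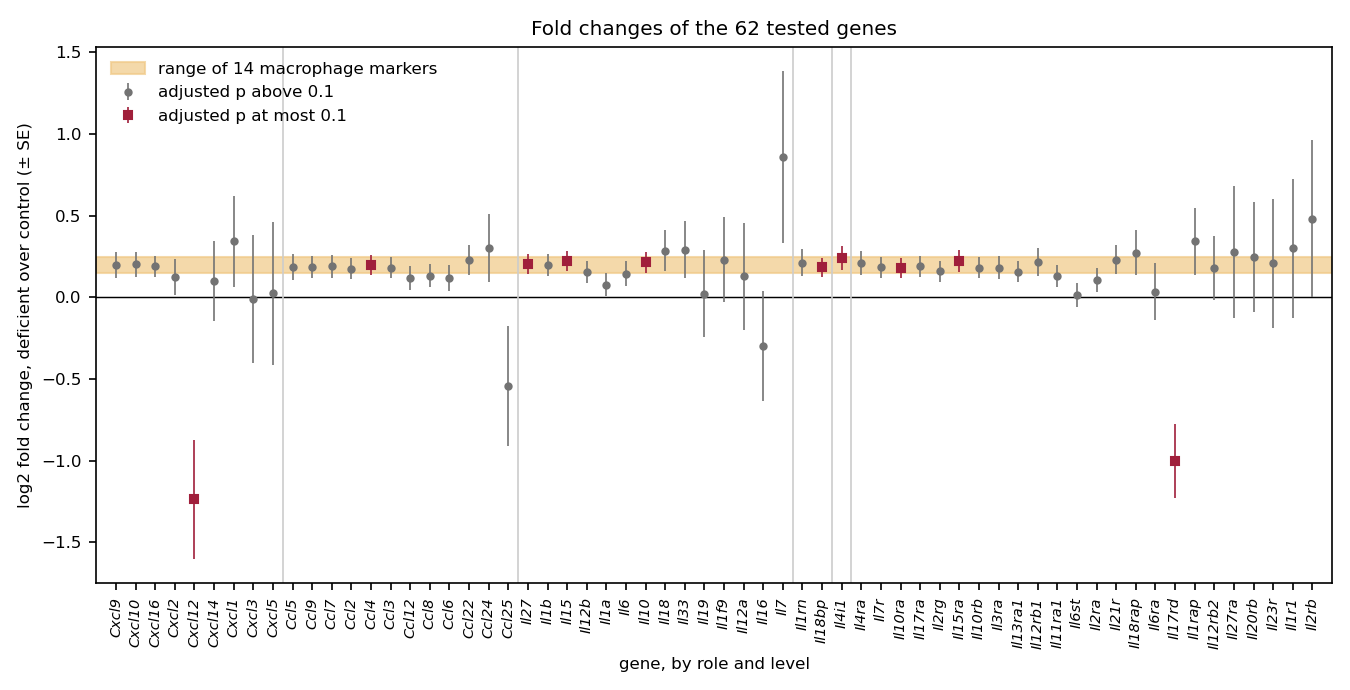
Log2 fold change of BAF155/170-deficient over control (y axis, points ± SE, TMM scale) for the 62 tested genes, ordered along the x axis by role and level; squares have an adjusted p of at most 0.1, and the band is the range of the 14 macrophage markers. Most abundant genes sit inside or just below the band (0.15 to 0.25), whereas Cxcl12 (-1.24) and Il17rd (-1.0) lie far below 0; scaled to the macrophage markers, the band and the abundant genes are centred near 0.

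Among the CXC chemokines, Cxcl9 and Cxcl10, which bind Cxcr3, were the most abundant, in CPM and per kilobase of exon. Cxcl9 (chr5:92321347-92328079 on the minus strand) was at 3233, 3104 and 3631 CPM in controls and 3672, 3813 and 3961 CPM in the BAF155/170-deficient libraries. Cxcl10 (chr5:92346638-92348889 on the minus strand) was at 1989, 1921 and 2228 CPM and 2268, 2324 and 2472 CPM in the same order. Cxcl16, a transmembrane ligand of Cxcr6 that also binds oxidized lipoprotein, was at 907, 914 and 970.0 CPM in the controls against 1014, 1051 and 1118 CPM. For these 3 genes every BAF155/170-deficient library was above every control, with log2 fold changes of 0.20, 0.20 and 0.19 (SE 0.079, 0.076 and 0.064), but the adjusted p-values of 0.134, 0.120 and 0.101 did not pass. Cxcl2, an attractant of neutrophils, was at 43.8, 40.9 and 53.3 CPM in controls and 43.9, 53.9 and 52.9 CPM in the BAF155/170-deficient libraries, and its groups overlapped. Cxcl14, Cxcl1, Cxcl3 and Cxcl5 were each under 6 CPM on average, with log2 fold changes of 0.10, 0.34, -0.013 and 0.025, and none of these passed.

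**Figure D2:**
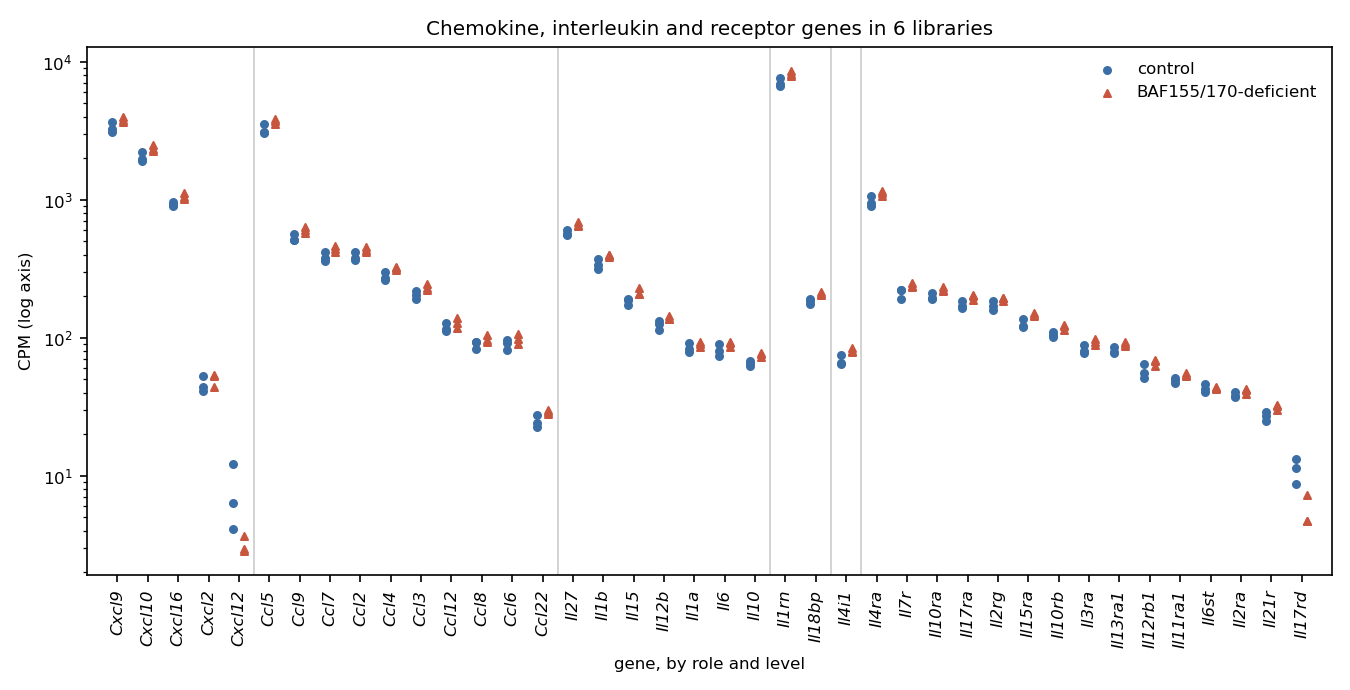
CPM (log axis) of the 38 genes with a mean of at least 20 CPM and of Cxcl12 and Il17rd in each of the 6 libraries; circles are the 3 controls, triangles the 3 BAF155/170-deficient libraries, and vertical lines part CXC chemokines, CC chemokines, interleukins, antagonist and binding protein, enzyme, and receptor chains. Levels span from 2.85 CPM for Cxcl12 to 8568 CPM for Il1rn, and the groups stand close together except for Cxcl12 and Il17rd.

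Of the 19 CC chemokines, 12 were tested, 11 with a positive log2 fold change. Of the 12, 1 passed (8.33%), where 4.18% of all genes and 10.7% of genes with at least 20 CPM passed as higher. Ccl5, or RANTES, which attracts T cells and monocytes, was the most abundant in CPM and per kilobase, at 3117, 3049 and 3555 CPM in controls and 3534, 3689.9 and 3819 CPM in the BAF155/170-deficient libraries; the highest control stood above the lowest BAF155/170-deficient library. Ccl4 and Ccl3 are macrophage inflammatory proteins that attract leukocytes. Ccl4 rose from 272, 262 and 297 CPM to 311, 318 and 326 CPM (log2 fold change 0.20, SE 0.062, adjusted p = 0.0924), with no overlap between groups, although scaled to the macrophage markers its log2 fold change was 0.0087. Ccl3 was at 203, 192 and 219.9 CPM in controls and 224, 229 and 245 CPM in the BAF155/170-deficient libraries, again without overlap, at an adjusted p of 0.114.

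The monocyte attractants that bind Ccr2 had like differences that did not pass. Ccl2 was at 379, 363 and 415 CPM in controls and 419, 432 and 456 CPM in the BAF155/170-deficient libraries (log2 fold change 0.18). Ccl7 was at 376, 361 and 419 CPM and 418, 441 and 461 CPM (0.19 on the log2 scale). Ccl12 was at 116, 113 and 127 CPM and 118, 128 and 139.8 CPM (0.12). The groups did not overlap for Ccl2, and they did for Ccl7, whose nearest libraries were at 419 and 418 CPM, and for Ccl12. Ccl8, a ligand of Ccr8 in the mouse, was at 83.5, 92.7 and 93.1 CPM in controls and 93.9, 96.6 and 105 CPM in the BAF155/170-deficient libraries. Ccl9, a mouse ligand of Ccr1, was at 510.0, 511 and 566 CPM and 572, 603 and 632 CPM, and Ccl6, which binds the same receptor, at 91.8, 81.5 and 97.0 CPM and 90.3, 97.6 and 106 CPM. Every BAF155/170-deficient library was above every control for Ccl8 and Ccl9 but not for Ccl6. Ccl22, a ligand of Ccr4 made by macrophages and dendritic cells, was at 22.5, 24.1 and 27.5 CPM in controls and 29.1, 27.9 and 30.1 CPM in the BAF155/170-deficient libraries, without overlap (adjusted p = 0.146). Ccl24, an eosinophil attractant, and Ccl25, a chemokine of thymus and gut, were under 6 CPM on average (log2 fold changes 0.30 and -0.54; neither passed).

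Most abundant CC chemokine genes shared a chromosome. Of the 11 on chromosome 11, 9 were tested, and all 9 of those had at least 20 CPM. The other 8 lie on chromosomes 1, 4, 5, 8 and 13, and of these Ccl22 alone reached that level.

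Of the 37 interleukins only 14 were tested, and 3 of those rose, where 4.18% of all genes and 10.7% of genes with at least 20 CPM did. Each of the 3 rose by 0.20 to 0.22 on the log2 scale before scaling to the macrophage markers, under which none passed. Il27, whose protein pairs with Ebi3 to form a cytokine that restrains T cells, rose from 564, 553 and 608 CPM to 644, 654 and 692 CPM (adjusted p = 0.0901). Il15, a growth factor for natural killer cells and memory T cells, rose from 187, 174 and 192 CPM to 209, 208 and 228 CPM (adjusted p = 0.0826). Il10, an anti-inflammatory cytokine, rose from 68.0, 62.5 and 65.7 CPM to 76.6, 73.1 and 77.8 CPM (adjusted p = 0.0862). In all 3 the lowest BAF155/170-deficient library was above the highest control.

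Among the inflammatory interleukins no difference passed. Il1b was at 337, 316 and 373 CPM in controls and 382, 399 and 397 CPM in the BAF155/170-deficient libraries (adjusted p = 0.103). Il12b, the shared subunit of IL-12 and IL-23, was at 127, 113 and 132 CPM and 136, 137 and 143 CPM (adjusted p = 0.157). For both the groups stood apart, the nearest libraries of Il1b being 373 and 382 CPM. Il1a was at 82.3, 78.7 and 92.3 CPM in controls and 85.9, 92.5 and 89.5 CPM in the BAF155/170-deficient libraries, and its log2 fold change of 0.078 was among the smallest. Il6 was at 74.3, 80.3 and 90.2 CPM and 85.5, 91.8 and 93.2 CPM, and like Il1a its groups overlapped. The other tested interleukins were Il18, Il33, Il19, Il1f9, Il12a, Il16 and Il7, each under 20 CPM on average, with log2 fold changes from -0.30 for Il16 to 0.86 for Il7, and none of them passed. Il7 had a mean of 0.540 CPM in controls and 1.01 CPM in the BAF155/170-deficient libraries, and its log2 fold change had an SE of 0.53.

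Per kilobase, Il1rn and Il18bp were more abundant than the cytokines they oppose, while Il1f5, the IL-36 receptor antagonist, had a single count over the 6 libraries. Il1rn (chr2:24336853-24351494 on the plus strand), which blocks the IL-1 receptor, had the highest CPM of all 113 genes, with 6929, 6694 and 7609.9 CPM in controls and 7888, 8151 and 8568 CPM in the BAF155/170-deficient libraries (log2 fold change 0.21, SE 0.08, adjusted p = 0.121). Per kilobase of annotated exon, Il1rn stood at 1380.3 CPM, Il1b at 193 CPM and Il1a at 44.0 CPM, on average over the 6 libraries. Il18bp, which binds and neutralizes IL-18, rose from 185, 175 and 191 CPM to 205, 208 and 214 CPM (adjusted p = 0.0920), and was at 65.0 CPM per kilobase against 15.8 CPM for Il18. Il4i1, an amino acid oxidase induced by interleukin 4 that restrains T cells, rose from 65.4, 64.9 and 75.5 CPM to 78.3, 80.5 and 84.4 CPM (log2 fold change 0.24, adjusted p = 0.0901). None of the 3 had overlapping groups, and the rises of Il18bp and Il4i1 were no longer past the threshold with the libraries scaled to the macrophage markers, where the value of Il18bp was -0.0078 and that of Il4i1 0.050. The exons of Il18bp and Il4i1 overlap those of Numa1, of Tbc1d17 and Atf5, and of Nup62, and Cxcl16, Il27 and Cxcl10 overlap Zmynd15, Apobr and Art3. Of the genes with few counts, Ccl25, Il16, Il12rb2 and Il7 overlap Elavl1, Stard5, Serbp1 and Gm16685. Those neighbors had 3426, 2312, 11043 and 481 counts over the 6 libraries, against 136, 119, 529 and 65. How the counting treated strand was not given, so part of the reads of all these genes may belong to the neighbors.

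Of the 41 receptor chains, 24 were tested: 2 rose, Il17rd fell and 21 did not pass. The 8.33% that rose stand against 4.18% of all genes and 10.7% of genes with at least 20 CPM, and the 4.17% that fell against 7.75% of all genes. Il10ra, the ligand-binding chain for IL-10, rose from 193, 191 and 209 CPM to 222, 218 and 232 CPM (log2 fold change 0.18, SE 0.059, adjusted p = 0.0986). Il15ra, which presents IL-15 to neighboring cells, rose from 119.9, 121 and 138 CPM to 144, 146 and 152 CPM (log2 fold change 0.22, SE 0.066, adjusted p = 0.0864). Thus both a ligand and its own chain passed for IL-10 and for IL-15, although none of these 4 genes passed on the scale of the macrophage markers, where Il10ra was at -0.011 and Il15ra at 0.034. Il10rb, the second chain for IL-10, was at 104, 101 and 111 CPM in controls and 114, 124 and 122 CPM in the BAF155/170-deficient libraries (adjusted p = 0.102).

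Il4ra, the chain shared by receptors for IL-4 and IL-13, was the most abundant receptor chain in CPM and per kilobase, at 941, 901 and 1059 CPM in controls and 1068, 1124 and 1161 CPM in the BAF155/170-deficient libraries (adjusted p = 0.107). Its partner Il13ra1 was at 77.9, 78.3 and 86.3 CPM and 86.5, 90.5 and 93.2 CPM. Il2rg, the common gamma chain, was at 170.3, 159 and 185 CPM and 186, 194 and 194 CPM. The BAF155/170-deficient libraries lay above the controls in all 3 of these chains, with the nearest libraries of Il13ra1 at 86.3 and 86.5 CPM. Il7r, which pairs with Il2rg, was at 221, 192 and 220.4 CPM in controls and 233, 238 and 249 CPM in the BAF155/170-deficient libraries. Il21r, another partner, was at 24.8, 27.0 and 28.9 CPM and 32.3, 29.9 and 32.7 CPM. Il2ra, the alpha chain for IL-2, was at 37.6, 37.2 and 40.1 CPM and 39.1, 41.8 and 42.8 CPM, with overlap between the groups.

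Il17ra, the common chain of the IL-17 receptors, was at 169.6, 163 and 186 CPM in controls and 188, 204 and 200.3 CPM in the BAF155/170-deficient libraries. Il3ra, which pairs with the common beta chain, was at 78.1, 79.7 and 88.7 CPM and 89.3, 92.9 and 97.6 CPM. Il12rb1, shared by the receptors for IL-12 and IL-23, was at 51.4, 55.3 and 64.4 CPM and 67.6, 62.6 and 68.9 CPM. Neither Il17ra nor Il3ra had overlapping groups, while Il12rb1 did. Il11ra1 was at 51.4, 47.2 and 49.8 CPM in controls and 53.9, 52.6 and 55.9 CPM in the BAF155/170-deficient libraries; its near-identical copy Il11ra2 was at 0, and reads of the pair cannot be assigned with certainty. Il6st, or gp130, the signaling chain of the IL-6 family, which most cell types express, was at 40.5, 46.0 and 42.8 CPM and 44.2, 43.4 and 42.7 CPM. It had the smallest log2 fold change of the 38 abundant genes (0.012, SE 0.073), and scaled to the macrophage markers its value was -0.18 (adjusted p = 0.271), whereas after the correction for gene length it was 0.35 and passed (adjusted p = 0.0560). Il18rap, Il6ra, Il1rap, Il12rb2, Il27ra, Il20rb, Il23r, Il1r1 and Il2rb were each under 20 CPM, with log2 fold changes from 0.034 to 0.48 that did not pass.

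Cxcl12 and Il17rd moved the other way. Cxcl12 (chr6:117168535-117181367 on the plus strand) fell from 6.38, 12.2 and 4.10 CPM in the controls to 3.68, 2.93 and 2.85 CPM in the BAF155/170-deficient libraries, on 60, 91 and 50 and 47, 48 and 60 counts. All 3 BAF155/170-deficient libraries lay below the lowest control, and control replicate 2 stood well above the other controls. The log2 fold change was -1.24 (SE 0.36, 95% interval -1.95 to -0.52, adjusted p = 0.0901). Without control replicate 2 it was -0.73 (adjusted p = 0.265), and the adjusted p was also above 0.1 without control replicate 1 (0.245), deficient replicate 2 (0.184) or deficient replicate 3 (0.284), and with limma-voom (0.109). Over all alternatives it ran from 0.00019 to 0.284, and the log2 fold change from -1.55 to -0.73.

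Il17rd (chr14:27038941-27107286 on the plus strand), also known as Sef, encodes a receptor-like protein that dampens fibroblast growth factor signaling in the embryo and is named with the IL-17 receptors for its sequence. It fell from 13.2, 11.4 and 8.70 CPM in the controls to 7.28, 4.70 and 4.70 CPM in the BAF155/170-deficient libraries (log2 fold change -1.0, SE 0.22, adjusted p = 0.0583), without overlap. The adjusted p rose above 0.1 without control replicate 1 or 2 or deficient replicate 2 or 3 (0.108 to 0.230), and the log2 fold change ran from -1.23 to -0.67 over all alternatives. Cxcl12 and Il17rd were also the only genes of the 62 to pass the combined rule of an adjusted p no higher than 0.1, a change of 0.58 or more on the log2 scale in either direction and a mean of 2 CPM or more, which 4.94% of all genes passed, 4.88% as lower and 0.0573% as higher. After the correction for gene length Il1rap also passed it, as higher. Groups did not overlap in the lower direction for the same 2 genes, where 16.4% of all genes did so.

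Their direction was that of the summed mesenchymal crest markers, and also of the summed neural crest and glial, neuronal, erythroid and epithelial markers. In the BAF155/170-deficient group the sums of these lists differed by -45.6%, -63.2%, -61.1%, -60.2% and -51.4%, in that order. None of the 5 epithelial markers had enough counts for a test, and their sum was at 0.862 to 2.94 CPM. Of 14 mesenchymal crest markers 13 were tested, all with a negative log2 fold change and a median of -0.99. The combined rule was passed by 9, where 4.88% of all genes passed it as lower, among them Prrx1 (-0.82), Twist1 (-1.18) and Pdgfra (-1.17). No marker of the list was at 0 in every library. Of the 4 tested neural crest and glial markers 2 fell, and of the 7 tested neuronal markers 2 fell, where 7.75% of all genes did. Of the 6 tested erythroid markers 4 had a negative log2 fold change and 2 a positive one. An unadjusted p under 0.05 was reached by 3, and 0 passed by edgeR. Hbb-y had a log2 fold change of -2.07 (adjusted p = 0.106), with 24.3 CPM in control replicate 2 against 9.47 and 5.66 CPM in the other controls. Hba-a1 and Hba-a2 had values of 0.022 and 0.48. The part of these cell types in the lower Cxcl12 and Il17rd was not tested. The 5 other genes with the profile most like that of Cxcl12 over the 6 libraries, of 8904 protein-coding genes with at least 5 CPM, were Cdkn1c, a cyclin-dependent kinase inhibitor (Pearson r 0.999 on log2 CPM), Agap1 (0.998), Rcc2 (0.995), Hnrnpa0 (0.995) and Pou4f1, a sensory neuron factor (0.995). For Il17rd r was 0.828. These values are over 6 libraries in which control replicate 2 was the highest for Cxcl12, and they carry no test. Of the Cxcl12 receptors, Cxcr4 was at 22.8, 19.0 and 22.7 CPM in controls and 21.3, 21.2 and 21.9 CPM in the BAF155/170-deficient libraries (log2 fold change -0.0054, adjusted p = 0.980), and Ackr3 at 2.87, 2.27 and 2.05 CPM and 1.80, 1.22 and 1.14 CPM (log2 fold change -0.80, adjusted p = 0.153).

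**Figure D3:**
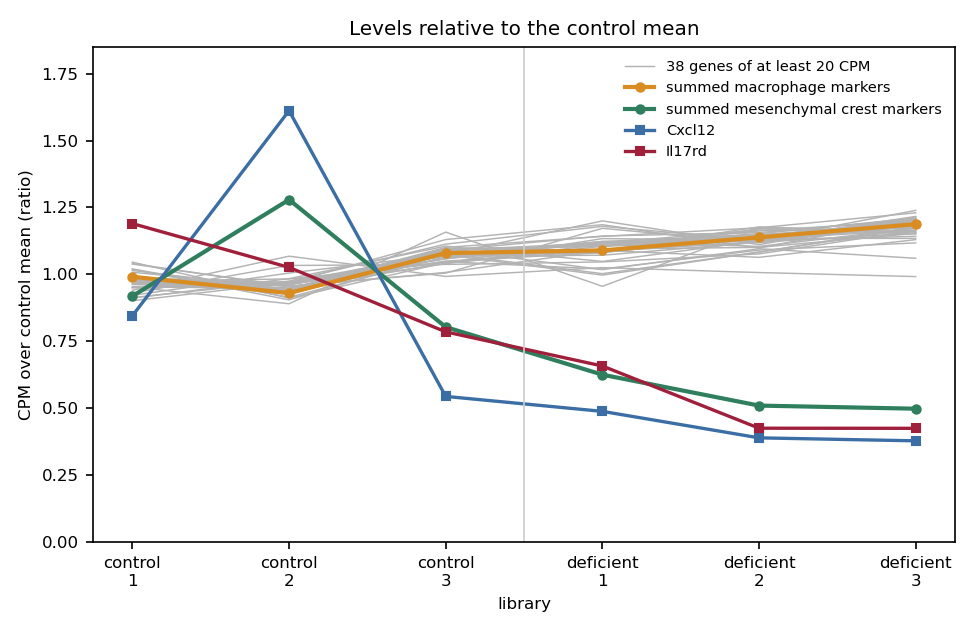
CPM in each library divided by the mean of the 3 controls (y axis, ratio) for the 38 genes of at least 20 CPM (gray lines), the summed macrophage markers, the summed mesenchymal crest markers, Cxcl12 and Il17rd; lines join values of the same gene or sum across libraries, which have no order within a group. Most gray lines lie close to the macrophage sum, with Il6st departing from it. Of the 2 sums drawn, Cxcl12 and Il17rd lie nearer the mesenchymal one, highest in controls 1 or 2 and below 0.7 in every BAF155/170-deficient library. The neuronal and the neural crest and glial sums, which were also lower, are not drawn.

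Sums over roles were also compared in CPM. The 30 chemokine ligands other than Cxcl12 summed to 11360.3, 11046 and 12719.7 CPM in controls and 12824, 13329 and 13945 CPM in the BAF155/170-deficient libraries, 14.2% higher on average. The 37 interleukins summed to 1475, 1410.0 and 1591 CPM and 1658, 1694 and 1763 CPM, a difference of 14.3%. The 41 receptor chains summed to 2336, 2255 and 2570.1 CPM and 2628, 2718 and 2804 CPM, a difference of 13.8%. On the TMM scale every BAF155/170-deficient library was above every control in each sum. The macrophage markers, summed in the same way, differed by 13.8%. Scaled to those markers the log2 ratios of the 3 sums were -0.00023, 0.00098 and -0.0047. All 113 genes together took 1.98% to 2.59% of a control's counts and 2.56% to 2.91% of those of a BAF155/170-deficient library. These shares, which do not use TMM, overlapped between the groups.

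Relative to each other the abundant genes hardly varied between libraries. As a share of the counts on all 113 genes, Il1rn took between 30.7% and 31.3% in each of the 6 libraries, Cxcl9 14.3% to 14.7%, Ccl5 13.9% to 14.4% and Cxcl10 8.87% to 9.03%. For every 1000 Il1rn counts there were 462 to 477 Cxcl9 counts, 285 to 293 Cxcl10 counts and 80.0 to 82.6 Il27 counts. Cxcl12 ranged from 0.332 to 1.82 and Il17rd from 0.549 to 1.90 on the same scale. The coefficient of variation (CV) of the share over the 6 libraries had a median of 2.41% for the 38 genes, beside a median of 2.37% from counting error alone, and it was at most 5% for 30 of them. It was smallest for Il1rn (0.660%) and largest for Il6st (10.9%). The 2 medians do not speak for each gene. Many genes lay above their own counting error, as Il1rn did (0.660% against 0.339%), and others below it, as Ccl7 did (0.853% against 1.46%). Shares add up to 100%, so they are not independent of each other. The replicate variation fitted by edgeR (biological coefficient of variation) had a median of 6.66% for these 38 genes, 7.44% for all genes of at least 20 CPM, and was 29.6% for Cxcl12 and 18.9% for Il17rd.

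**Figure D4:**
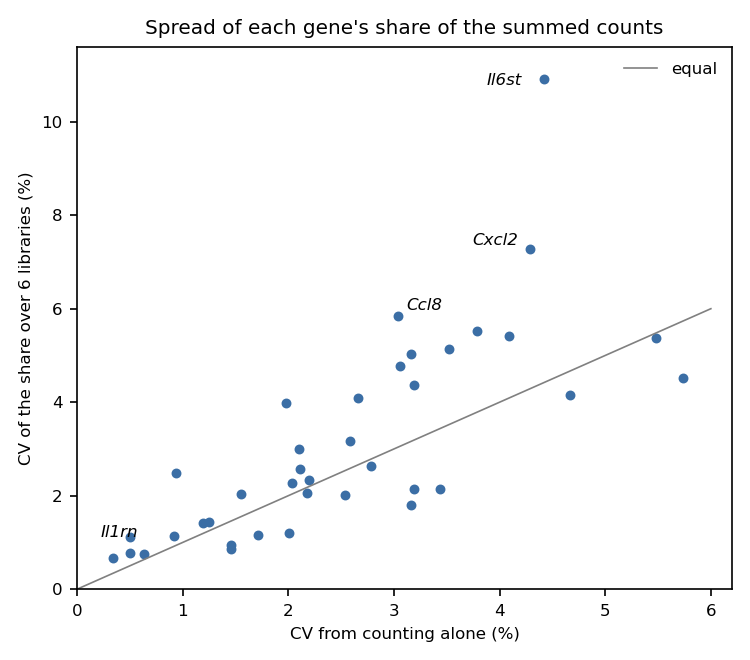
Coefficient of variation over the 6 libraries of each gene's share of the counts on all 113 genes (y axis, %) against that from counting alone (x axis, %), for the 38 genes of at least 20 CPM; the line marks equal values. Most points lie near the line, with Il6st (10.9%) the farthest above it.

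Per kilobase of annotated exon the order was led by Ccl5 at 3605 CPM, followed by Il1rn (1380.3), Cxcl9 (1183), Cxcl10 (977), Il27 (606), Ccl7 (515) and Ccl4 (451), as means over 6 libraries. Ccl5 did not overlap Il1rn in its range over libraries, and Cxcl10 did not overlap Il27, while the ranges of the other neighbors in this list did overlap even though the order held within each of the 6 libraries. Il1b, Ccl9 and Ccl8, at 193, 186 and 184 CPM per kilobase, could not be ordered: neighbors kept their order in 5 of 6 libraries. At the low end stood Il6st (3.90), Il17rd (0.758) and Cxcl12 (0.655), the latter pair with overlapping ranges.

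The remaining genes had few counts. Besides Cxcl12 and Il17rd, 22 tested genes had under 20 CPM, 19 with a positive and 3 with a negative log2 fold change, from -0.54 to 0.86 with adjusted p-values from 0.169 to 0.988. Of the 51 genes not tested, 12 had no count in any library, which 3 counts per library would bound at 0.151 to 0.366 CPM by counting error alone. They were Ccl19, Ccl26, Il2, Il3, Il9, Il17b, Il25, Il31, Il5ra, Il9r, Il22ra1 and Il11ra2. The other 39 had between 1 and 52 counts over the 6 libraries together, among them Il34 (52), Il4 (41), Il13 (9), Il23a (3), Il5 (1) and Il17a (1). Il2, Il4, Il5, Il9, Il13 and Il17a are products of lymphocytes, and in these libraries the lymphoid markers summed to no more than 3.52 CPM.

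Genes of the same pathways that the name rule leaves out were read from 5 lists. The chemokine receptor with the highest CPM was Ccrl2, an atypical receptor that presents chemerin. Of 23 receptors 12 were tested, 2 rose and none fell, with a median log2 fold change of 0.18. Among all genes 4.18% rose and 7.75% fell, and among genes with at least 20 CPM 10.7% rose. Ccrl2 was 1 of the 2 receptors that rose, from 473, 460.3 and 511 CPM to 545, 539 and 561 CPM (adjusted p = 0.0970). Ccr2, the receptor of Ccl2, was at 15.4, 17.7 and 15.8 CPM in controls and 15.0, 17.7 and 18.7 CPM in the BAF155/170-deficient libraries, and Cxcr3, the receptor of Cxcl9 and Cxcl10, at 1.70, 0.268 and 0.657 CPM and 1.25, 1.65 and 1.04 CPM, neither of which passed. The Cxcl2 receptor Cxcr2 had too few counts for a test. Of the 9 chemokines whose names fall outside the pattern, 8 were in the table, 4 were tested and none passed by edgeR, with 0 at an unadjusted p under 0.05 and none passing by DESeq2 or limma-voom. Pf4, or platelet factor 4, which macrophages also express, was at 43.8, 38.1 and 52.9 CPM and 49.3, 56.3 and 50.4 CPM (adjusted p = 0.262).

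Of the 17 other cytokine genes with receptors of the same families, 14 were tested, with a median log2 fold change of 0.17. Crlf2, the receptor chain for TSLP, rose from 159, 141 and 163 CPM to 170.3, 183 and 182 CPM (log2 fold change 0.21, adjusted p = 0.0937). Lifr, the receptor for leukemia inhibitory factor, fell from 4.15, 8.70 and 5.58 CPM to 4.07, 2.51 and 3.23 CPM (log2 fold change -0.90, adjusted p = 0.0984), without overlap between the groups. Cntfr, the receptor for ciliary neurotrophic factor, was at 7.34, 11.2 and 3.94 CPM in controls and 3.84, 3.73 and 1.99 CPM in the BAF155/170-deficient libraries (log2 fold change -1.23, adjusted p = 0.103). Ebi3, the partner of Il27, was at 162, 149 and 172 CPM and 169, 190.4 and 185 CPM and did not pass.

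Most signaling genes behind the receptors differed by like amounts. Of 16 genes of IL-1 receptor and inflammasome signaling, 15 were tested and 4 rose, where 4.18% of all genes and 10.7% of genes with at least 20 CPM did (median log2 fold change 0.19). They were Nlrp3, the inflammasome sensor (0.24, adjusted p = 0.0773), Casp1, which cleaves pro-IL-1beta (0.19, adjusted p = 0.0998), and the IL-1 receptor-associated kinases Irak3 (0.33, adjusted p = 0.0864) and Irak4 (0.44, adjusted p = 0.0901). Of 15 JAK-STAT genes all were tested and 7 rose, to be read against the same shares (median 0.19). They were the kinases Jak1, Jak2, Jak3 and Tyk2 and the factors Stat2, Stat3 and Stat5a, with log2 fold changes from 0.20 to 0.22. The feedback inhibitors Socs1 and Socs3 had values of 0.18 and 0.19 that did not pass. Socs2 and Cish of the same list went the other way, at -0.18 and -0.19, and did not pass either. Of the 15 genes 12 had a positive value and 3 a negative one. Over the 5 lists 14 genes rose and 1 fell, to be read against 4.18% and 7.75% of all genes. With the libraries scaled to the macrophage markers the counts by edgeR were 0 and 0, with 4 genes at an unadjusted p under 0.05. Both counts were also 0 by edgeR without control replicate 1 or 2 or deficient replicate 2 or 3, with 17, 16, 24 and 14 genes at an unadjusted p under 0.05, and 7 and 33 genes rose without deficient replicate 1 and without control replicate 3.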

How the data were processed

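RNA was measured in 6 libraries labelled as sorted GFP-positive NCCs, 3 controls and 3 BAF155/170-deficient, grouped by their titles. Per the labels, strand-specific poly(A) libraries were made, and the submitters' processing notes name FastQC 0.11.7, cutadapt 1.18, STAR, featureCounts and limma with build GRCm38. The authors deposited raw counts per gene, not normalized, and a whole-number count is the unit used throughout. Whether the counting used strand is not given in the sources used here.

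Ensembl identifiers were matched without version suffixes to GENCODE M21 (46488 of 46983). Genes passing filterByExpr (minimum count 10, total 15) were fitted with edgeR 4.0.16 (R 4.3.3; TMM, quasi-likelihood, robust, condition only), Benjamini-Hochberg adjusted over all 13961 genes; SE is the log2 fold change divided by the square root of F. CPM uses TMM library sizes. Named in the text were Cxcl12, genes of at least 20 CPM, genes with an adjusted p of at most 0.1 and 5 genes most like Cxcl12 (Pearson r, pseudocount 0.5 CPM); receptors, signaling genes and low genes named outside this rule were chosen by role after their values were seen. The fits were tested on simulated data with changes in both directions and lower replicate variation than Cxcl12 and Il17rd had. That check does not cover such genes, or a shift mostly in the same direction. The genes and lists were chosen with earlier results of these data known. Alternatives were DESeq2 1.42.0, limma-voom 3.58.1, library totals, 2 other filters, a replicate block, a length correction (lowess span 0.3), scaling to macrophage markers, and each library left out. Sequences are RefSeq's; 45 of 62 tested genes had one. Depth of 8191219 to 19808620 counts bounds a gene at 0 to under 0.366 CPM, from 3 counts. Floors cover counting error only; the 95% interval is taken from the SE and includes replicate variation. The values of 1 gene of the chemokine receptor list are not reported here.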

Additional observations from a re-analysis of the deposited data

How the results depend on the processing

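All alternatives but the left-out libraries were fitted to the 6 libraries; in the left-out fits a group had 2. The count of genes higher at an adjusted p of at most 0.1, 8 as reported, was 15 with limma-voom, 22 with DESeq2, 0 with library totals, 24 without a filter on low counts, 1 with only genes of at least 2 CPM, 14 after the length correction and 0 scaled to the macrophage markers, and it ran from 0 to 31 with a library left out. The count lower, 2 as reported, was 1 with limma-voom, with the 2 CPM filter and scaled to the macrophage markers, and 0 to 2 with a library left out. The genes that passed the combined rule likewise numbered 1 in those 3 settings and 0 to 2 with a library left out, against 2, and 3 after the length correction, with Il1rap added. Of the other pathway genes, 14 higher and 1 lower as reported, 2 were higher with library totals and with the 2 CPM filter, 30 without a filter and 0 on the macrophage scale; lower were 0 with limma-voom, the 2 CPM filter and the macrophage scale, and 2 with DESeq2, library totals and no filter. With a library left out they ran from 0 to 33 higher and 0 to 3 lower. Replicate numbers gave no clear pairing of the samples. Deviations of same-numbered libraries correlated at 0.0284, -0.0335 and 0.293, and 2 of 6 libraries correlated best with their own number. Whether libraries were paired in another way was not tested. A fit with a replicate block gave 29 chemokine, interleukin and receptor genes and 31 other pathway genes higher, and 2 other pathway genes lower.

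Cxcl12 passed the threshold in only 7 of 14 alternatives and missed it in the other 7. The misses were -1.03 with limma-voom (adjusted p = 0.109), -1.27 with the 2 CPM filter (0.104), -1.46 scaled to the macrophage markers (0.102), and 4 of the fits with a library left out, at -1.34 to -0.73. Over all 6 such fits it ran from -1.55 to -0.73. On the macrophage scale 24 abundant genes turned negative, none at an adjusted p under 0.190: Ccl5 -0.0065, Cxcl16 -0.0042, Ccl9 -0.0046, Ccl7 -0.00076, Ccl2 -0.015, Il7r -0.0074, Ccl3 -0.0087, Il10ra -0.011, Il18bp -0.0078, Il17ra -0.00083, Il2rg -0.031, Il12b -0.033, Ccl12 -0.073, Il10rb -0.0092, Ccl8 -0.061, Ccl6 -0.073, Il3ra -0.0086, Il1a -0.11, Il6 -0.046, Il13ra1 -0.034, Il11ra1 -0.063, Cxcl2 -0.063, Il6st -0.18 and Il2ra -0.086. The log2 ratios of the sums were -0.00023 for chemokine ligands, 0.00098 for interleukins and -0.0047 for receptor chains on that scale. Il6st was also negative with the 2 CPM filter (-0.016), and ran from -0.028 without control replicate 1 to 0.060 with a library left out, being -0.00092 without deficient replicate 1. By construction the macrophage scale sets the mean log2 level of those markers equal across libraries; for the other settings the cause was not tested. Depth limits the genes under 20 CPM, whose SE reached 0.53.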
